A study of Mus musculus with 2 samples.

Results

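The transcription factor p53 (Trp53), its regulators Mdm2 and Mdm4 and a set of genes known as p53 targets were followed in blood stem and progenitor cells that carry a p53 deletion in both genotypes. The set was fixed by name and holds 32 genes of the 22020 gene symbols in the table, and each gene was read from its transcript with the highest mean level. All 32 were listed, 25 reached a mean of 1 RPKM over both libraries and are called measured here, 6 had reads below that mean, and Eda2r had none. RPKM is the number of reads per kilobase of transcript, scaled by the read total of the library, so it can be compared between genes.

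The tested cells came from Utx/p53 DKO mice, in which Utx (Kdm6a, an X-linked histone demethylase gene) and p53 are both knocked out, and the cells they were set against came from p53 KO mice. Both groups were C57BL/6 mice of 8 weeks, and LSK cells (Lin-Ckit+Sca1+) were sorted from them, the fraction rich in blood stem cells and early progenitors. The labels give neither the deleted exons, nor the way the deletions were made, nor how many mice were pooled. There was 1 library per genotype, so no difference below could be tested, and the spread between mice is unknown.

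In cells with intact p53, DNA damage and other stress stabilise the protein, which binds DNA and switches on genes for cell cycle arrest, repair and death. Mdm2 is itself a target, which closes a feedback loop, because its product marks p53 for degradation. In haematopoietic stem cells p53 is known for restraining proliferation and for removing damaged cells. Many of its target genes also respond to other factors, so transcripts without p53 are read here as p53-independent levels.

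The libraries held 19926294 reads (Utx/p53 DKO) and 17088105 reads (p53 KO), and the deleted Kdm6a was at 1.26 RPKM in the Utx/p53 DKO library, against 5.32 RPKM in the p53 KO library. A small set of abundant transcripts took more of the Utx/p53 DKO library: the 10 most abundant genes held 19.98% of its summed RPKM, against 8.17% in the p53 KO library. The median gene differed by -0.24 on the log2(RPKM + 1) scale, Utx/p53 DKO minus p53 KO, among 11356 measured genes. Other scalings of the libraries moved that median by 0.24 (centring on it), 0.13 (upper quartiles), -0.31 (equal summed RPKM) and 0.52 (the constants of the authors' tool gfold). For the genes of the set, directions are therefore given below with the number of these 5 scalings, RPKM as deposited included, in which they hold. Values of other genes are on RPKM as deposited unless another scaling is named.

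Markers of other cell types also differed between the libraries. The counts cover measured markers, and of all measured genes 6.6% were at least 2-fold higher and 13.5% lower. Summed levels cover every marker found, also those not measured. Of 10 measured granulocyte and monocyte markers, 8 were at least 2-fold higher and 1 lower (summed level 54368 RPKM in the Utx/p53 DKO and 4794 RPKM in the p53 KO library), and of 8 T and NK cell markers 7 were higher (115 and 39.6 RPKM). Lower were 6 of 6 B cell markers (62.3 and 311 RPKM), 4 of 5 erythroid markers (56.8 and 354 RPKM, with Epor at 0 in the Utx/p53 DKO library), 4 of 5 basophil, mast cell and eosinophil markers (40.6 and 115 RPKM) and 2 of 3 megakaryocyte markers (26.4 and 36.1 RPKM). Of 6 macrophage and dendritic cell markers, 3 were higher and 1 lower (55.8 and 48.0 RPKM), and both measured endothelial and stromal markers of 6 were higher (53.8 and 17.4 RPKM). Among 5 genes of the sort and of stem cells, 3 were lower. Kit was at 16.02 RPKM in the Utx/p53 DKO and 64.2 RPKM in the p53 KO library, and Cd34 at 49.1 and 348 RPKM in that order. Ly6a, which encodes Sca-1, was at 281 RPKM in the Utx/p53 DKO and 255 RPKM in the p53 KO library. Elane and Lyz2 led the granulocyte and monocyte markers, with Elane at 26714 RPKM in the Utx/p53 DKO and 1649 RPKM in the p53 KO library. In bulk RNA, fewer cells of a type and less RNA per cell cannot be told apart, and the part of these markers in the differences below was not tested.

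The DNA that p53 would bind is shown first for genes whose promoters hold it, because it is what these genes share apart from their transcript levels. RefSeq promoter windows (build GRCm38.p6, from 250 bases before to 50 after a start site) matched 24 of the 32 genes, with 33 windows; the other 8 are Perp, Ddb2, Pmaip1, Rrm2b, Zmat3, Tnfrsf10b, Trp53inp1 and Xpc. They were searched for the p53 half-site consensus, the 10-base unit of which p53 binds a pair and which reads the same on both strands. An exact half-site was found for 12 of the 24 genes (50%), against 9.55% of the 27025 gene symbols in the promoter table. By window, 39.4% of the members' 33 and 8.36% of all 32851 held one. The genes are known targets, so a higher share than in all promoters follows from how they were chosen. The stretches below lie wholly before a start site, run 5′ to 3′ on the gene's strand, and have the exact half-sites in capitals.
Cdkn1a (chr17:29090891-29090952, + strand): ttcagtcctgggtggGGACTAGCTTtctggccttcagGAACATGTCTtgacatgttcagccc
Mdm2 (chr10:117710920-117710959, - strand): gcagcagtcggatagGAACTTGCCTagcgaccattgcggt
Trp53 (chr11:69580269-69580308, + strand): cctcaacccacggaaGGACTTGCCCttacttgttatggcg
Ccng1 (chr11:40755447-40755486, - strand): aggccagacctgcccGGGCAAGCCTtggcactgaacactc
Bax (chr7:45467075-45467114, - strand): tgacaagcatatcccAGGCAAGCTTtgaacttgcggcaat
Sesn1 (chr10:41887251-41887290, + strand): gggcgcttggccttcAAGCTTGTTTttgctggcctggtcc
Ckap2 (chr8:22185998-22186037, - strand): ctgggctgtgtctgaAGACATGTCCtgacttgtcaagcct

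Cdkn1a was the gene with a pair of exact half-sites, 12 bases apart. A pair of half-sites at most 13 bases apart with at most 1 mismatch in all was found for 5 of the 24 genes (Cdkn1a, Bax, Ccng1, Polk and Gtse1), against 1.24% of all gene symbols. With up to 3 mismatches the count was 15 of 24, against 48.5% of all gene symbols. Of the 12 genes with an exact half-site, 11 were measured, of which 0 were at least 2-fold higher and 2 lower in the Utx/p53 DKO library. Of the 12 matched genes without one, 8 were measured, of which 1 was higher and 3 lower. Of all measured genes, 6.6% were at least 2-fold higher and 13.5% lower, and no difference between these small groups was tested. A match is a description of letters, and sites outside these windows were not searched.

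**Figure D1:**
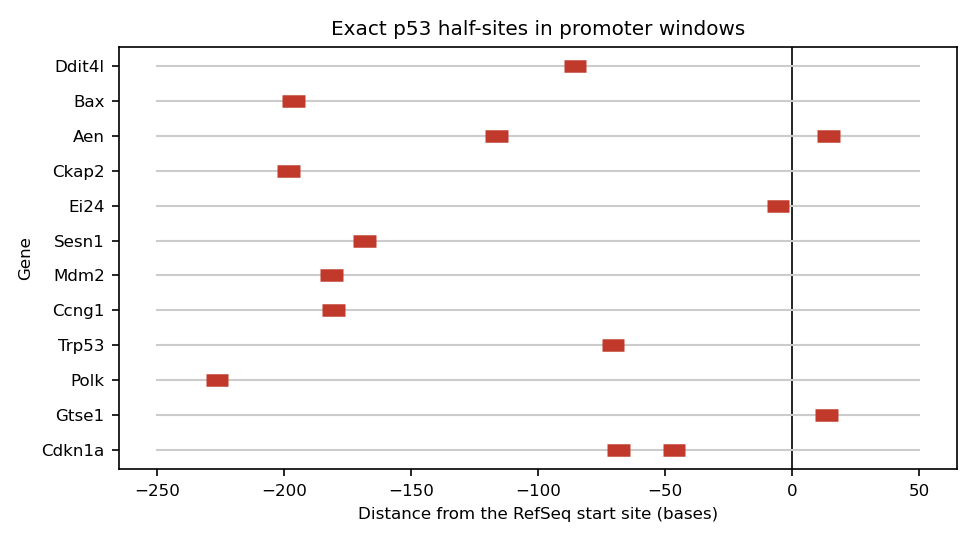
Position of exact p53 half-sites (red blocks) in promoter windows of the 12 genes that hold one, as distance in bases from the RefSeq start site (0). Each gray line spans the window of 250 bases before to 50 after the start; the windows of all start sites of a gene are laid over each other, so 1 half-site of Aen appears at both -121 and 10.

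Transcripts of the deleted gene remained in both libraries. Trp53 had 456 reads (12.9 RPKM) in the Utx/p53 DKO library, against 587 reads (19.4 RPKM) in the p53 KO library. The RPKM ratio, Utx/p53 DKO over p53 KO here and below, was 0.666 (95% counting interval 0.588 to 0.754). On log2(RPKM + 1) the difference lay between -0.90 and 0.02 over the scalings and was above 0 in 1 of the 5, that of the gfold constants. Its level was higher than that of 62.8% of measured genes in the Utx/p53 DKO library and 69.2% in the p53 KO library, so Trp53 RNA was not rare in either. A longer Trp53 transcript form of 96 more bases held 7 more reads in the Utx/p53 DKO and 12 more in the p53 KO library, so nearly all reads lay in sequence that both forms share. Whole-transcript values cannot place reads on single exons, so whether the reads come from exons outside the deletion was not tested.

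The regulators of the p53 protein differed by less than 2-fold on RPKM as deposited. Mdm2, the ubiquitin ligase for p53, had 736 reads (12.2 RPKM) in the Utx/p53 DKO library, against 771 reads (14.9 RPKM) in the p53 KO library (ratio 0.819, 0.739 to 0.907). Mdm4, its relative that blocks p53's activation domain, was at 6.90 RPKM in the Utx/p53 DKO library, against 11.7 RPKM in the p53 KO library (ratio 0.589, 0.523 to 0.662). Mdm4 was lower in all 5 scalings, with its interval below 1 in 4 of them and holding 1 in 1. Mdm2 was lower in 4, but its interval lay below 1 in 2, held 1 in 2 and lay above it in 1. Mdm4 reached 2-fold with equal summed RPKM alone (-1.01).

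Across the whole set, 7 of the 25 measured genes differed by at least 2-fold (28%), against 20.1% of all measured genes. Of the 25 measured genes, 2 (8%) were at least 2-fold higher in the Utx/p53 DKO library, Fas and Xpc, against a background of 6.6% of all measured genes. At least 2-fold lower were 5 (20%), Plk2, Aen, Sesn1, Bbc3 and Sesn3, against 13.5% of all measured genes. Btg2 (-0.98) and Tnfrsf10b (-0.94) lay just short of the 2-fold limit. Centred on the all-gene median, the counts were 2 higher and 2 lower, against 9.63% and 8.76% of all measured genes (18.4% together), and with upper quartiles also 2 and 2, against 8.36% and 11% (19.4% together). With equal summed RPKM 1 was higher and 10 lower, against 4.39% and 23.9% (28.2% together), and with the gfold constants 3 were higher and 1 lower, against 16.5% and 6.27% (22.8% together). The median difference of the set was -0.27, against -0.24 for all measured genes.

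**Figure D2:**
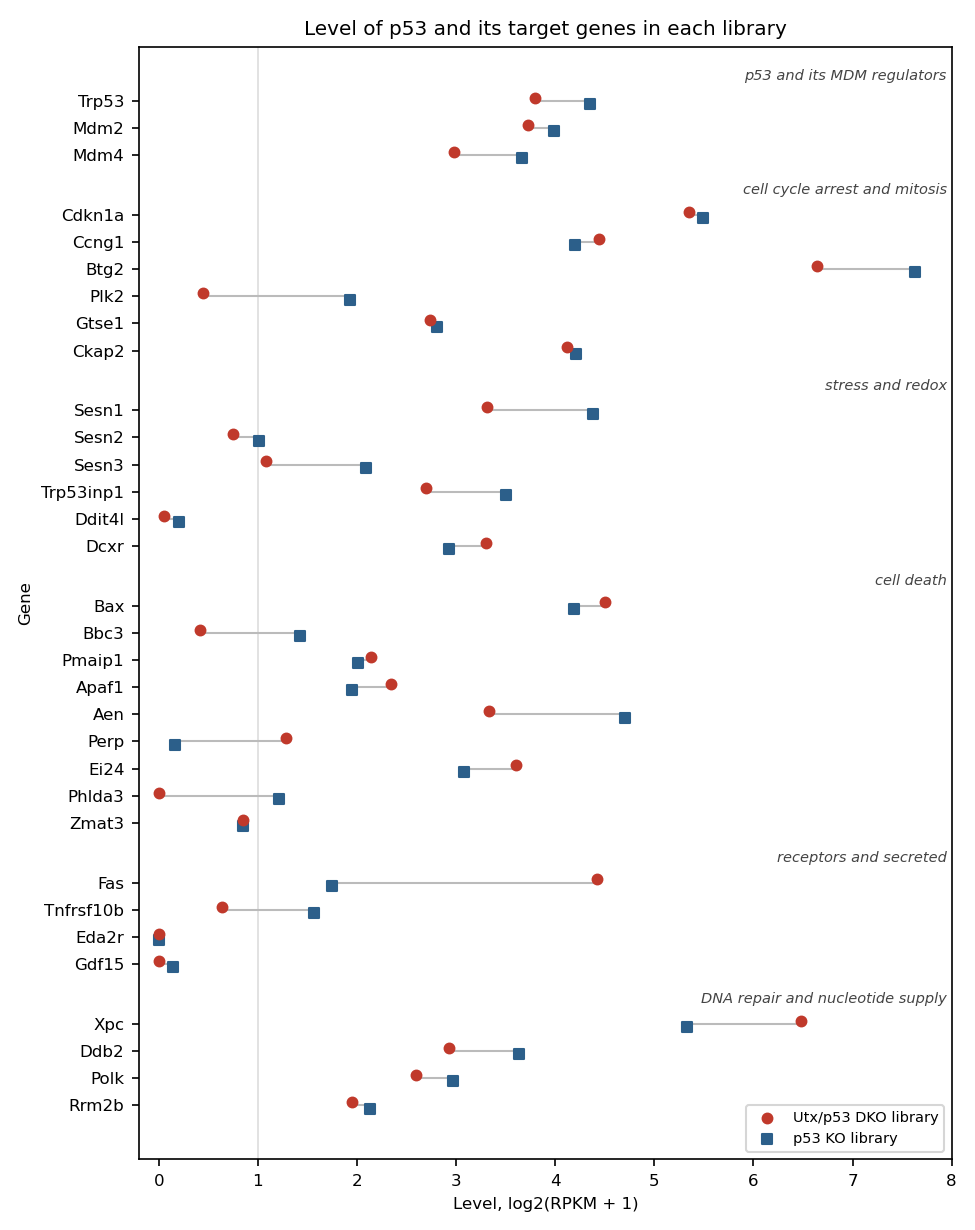
Level of each of the 32 genes on the log2(RPKM + 1) scale in the Utx/p53 DKO library (red circles) and in the p53 KO library (blue squares), grouped by role; a gray bar joins the levels of a gene and the pale line marks 1 RPKM. Btg2, Xpc and Cdkn1a have the highest levels in both libraries, and Fas shows the widest gap, with 20.4 RPKM in the Utx/p53 DKO and 2.36 RPKM in the p53 KO library.

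Counting error allows a finer reading for single genes. The 95% interval of the RPKM ratio stayed above 1 under all 5 scalings for Fas and Xpc, 2 (8%) of the 25 measured genes, against 14.5% of the 10635 measured genes with recovered reads. It stayed below 1 under all 5 for 8 (32%), against 25.1% of those genes: Btg2, Plk2, Sesn1, Sesn3, Trp53inp1, Bbc3, Aen and Tnfrsf10b. For the other 15 measured genes the direction turned, or the interval held 1, in at least 1 scaling. Of the genes below the filter, Perp lay above and Phlda3 below 1 in all 5. By the GFOLD value of the authors' deposited table, a fold change shrunk for counting error and set on the gfold constants, 13 measured genes were above 0, 8 below and 4 at 0, against 54.5% above and 22.9% below of all measured genes.

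**Figure D3:**
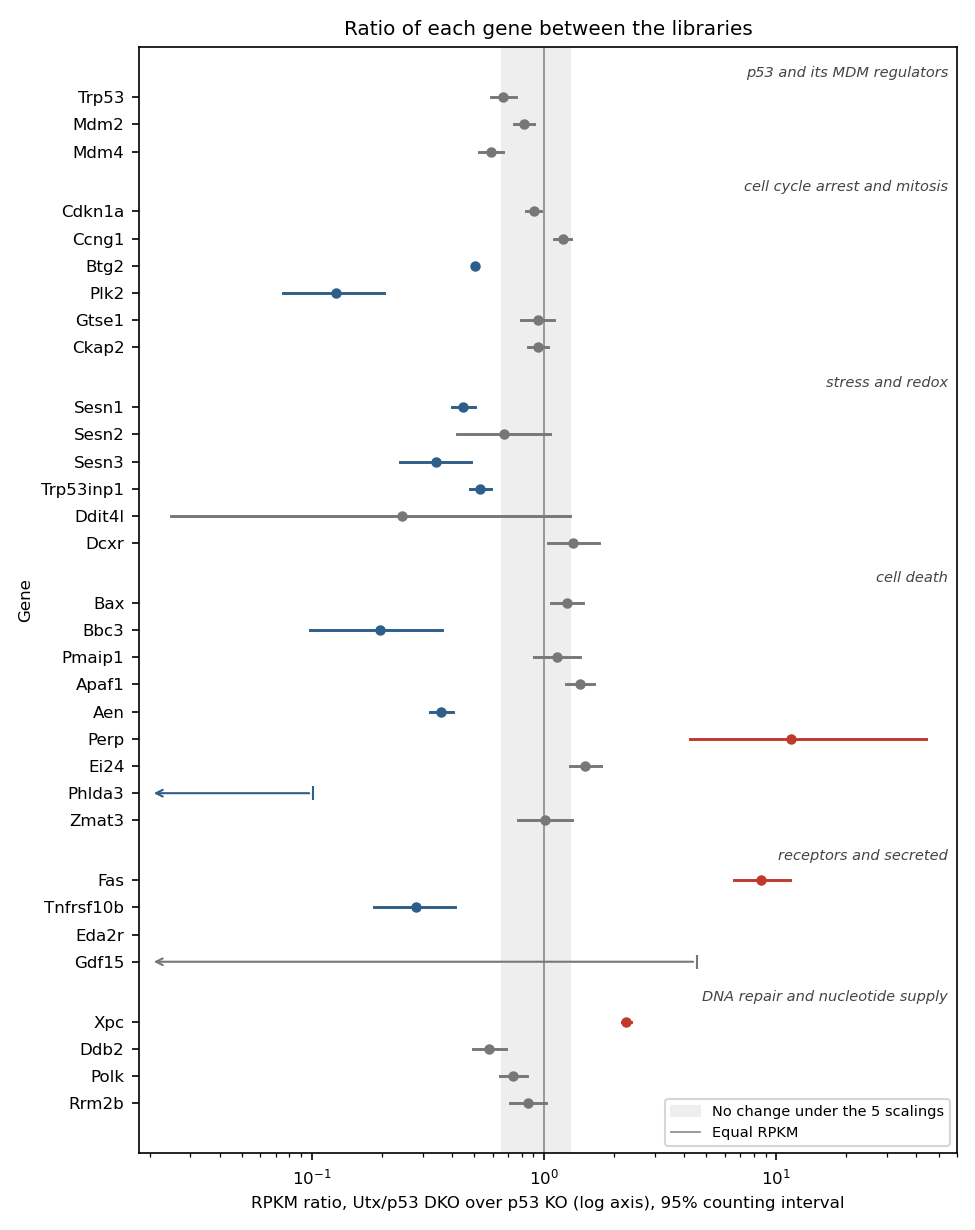
RPKM ratio, Utx/p53 DKO over p53 KO, of each gene with its 95% counting interval (bars) on a log axis; arrows mark genes with 0 reads in the Utx/p53 DKO library, drawn to the upper bound, and Eda2r had no reads. The pale band spans the ratios that stand for no change under the 5 scalings, and red and blue genes (Fas, Xpc and Perp above; 9 genes below) lie outside it with their whole interval.

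Among genes of cell cycle arrest, the best known target was near equal in both libraries. Cdkn1a encodes p21, the inhibitor of cyclin-dependent kinases through which p53 halts the cycle. It had 1509 reads (39.6 RPKM) in the Utx/p53 DKO library, against 1436 reads (44.0 RPKM) in the p53 KO library, a ratio of 0.901 (0.838 to 0.969). Its sign followed the scaling, above 0 in 3 of 5. Its level was higher than that of 84.7% of measured genes in the Utx/p53 DKO library and 85.4% in the p53 KO library, although both lack p53. Ccng1, a cyclin that recruits a phosphatase to Mdm2, was at 20.8 RPKM in the Utx/p53 DKO library, against 17.3 RPKM in the p53 KO library (ratio 1.201, 1.11 to 1.30; higher in 4 of 5 scalings).

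Btg2 and Plk2 were lower in all 5 scalings. Btg2, an antiproliferative factor that promotes shortening of messenger RNA tails, was the most abundant gene of the set, with 6078 reads (98.9 RPKM) in the Utx/p53 DKO library, against 10354 reads (197 RPKM) in the p53 KO library. Its ratio was 0.503 (0.488 to 0.520), and its log2 difference of -0.98 lay just short of 2-fold. Plk2, a polo-like kinase of centriole duplication, had 20 reads (0.358 RPKM) in the Utx/p53 DKO library, against 135 reads (2.82 RPKM) in the p53 KO library. That made it 7.87-fold lower (ratio 0.127, 0.0752 to 0.204). On log2(RPKM + 1), which understates differences of low genes, it was the only measured member at least 2-fold lower in all 5 scalings. Gtse1 and Ckap2, which encode microtubule-binding proteins of G2 and mitosis, hardly differed on RPKM as deposited. Gtse1 was at 5.65 RPKM in the Utx/p53 DKO and 6.02 RPKM in the p53 KO library. Ckap2 was at 16.4 and 17.5 RPKM in the same order. Both had a ratio of 0.938, with 1 inside the interval (0.794 to 1.11 for Gtse1, 0.850 to 1.04 for Ckap2). Their direction turned with the scaling, above 0 in 3 of the 5 for each. The interval held 1 in 3 scalings for Gtse1 and in 2 for Ckap2.

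The sestrins, which restrain the growth kinase complex mTORC1, had lower RPKM in the Utx/p53 DKO library in each of the 3 genes. Sesn1 had 464 reads (8.91 RPKM) in the Utx/p53 DKO library, against 888 reads (19.9 RPKM) in the p53 KO library (ratio 0.448, 0.400 to 0.502). Sesn3 had 48 reads (1.12 RPKM) in the Utx/p53 DKO library, against 120 reads (3.25 RPKM) in the p53 KO library (ratio 0.343, 0.240 to 0.483). Sesn1 and Sesn3 were lower in all 5 scalings, and their log2 differences of -1.08 and -1.01 put them just past 2-fold. Both reached 2-fold in 2 of the 5 scalings: with the gfold constants Sesn1 was at -0.52 and Sesn3 at -0.66. Sesn2 was below the filter, with 36 reads in the Utx/p53 DKO and 46 in the p53 KO library, and its interval (0.422 to 1.06) held 1.

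The remaining stress genes went both ways. Trp53inp1, which promotes autophagy and p53-dependent death, was at 5.48 RPKM in the Utx/p53 DKO library, against 10.3 RPKM in the p53 KO library (ratio 0.531, 0.478 to 0.589), lower in all 5 scalings. Dcxr, a reductase of sugars and dicarbonyl compounds, was at 8.86 RPKM in the Utx/p53 DKO library, against 6.63 RPKM in the p53 KO library (ratio 1.34, 1.04 to 1.73), higher in all 5 scalings, although with equal summed RPKM the interval held 1. Ddit4l, an mTORC1 inhibitor, was close to absent, with 2 reads in the Utx/p53 DKO and 7 in the p53 KO library (ratio 0.245, 0.0248 to 1.29).

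In the mitochondrial death pathway the initiators differed from each other. The BH3-only gene Bbc3, which encodes Puma and carries much of p53's killing of blood cells, had 13 reads (0.330 RPKM) in the Utx/p53 DKO library, against 57 reads (1.69 RPKM) in the p53 KO library. It was 5.11-fold lower (ratio 0.196, 0.0982 to 0.362) but stood just above the filter, at a mean near 1 RPKM. Its log2(RPKM + 1) difference of -1.01 reached 2-fold in 2 of the 5 scalings and was -0.78 when centred. The other BH3-only gene, Pmaip1 (Noxa), was at 3.42 RPKM in the Utx/p53 DKO library, against 3.02 RPKM in the p53 KO library (ratio 1.13, 0.902 to 1.43). Bbc3 was lower in all 5 scalings with its whole interval, while the interval of Pmaip1 held 1 in 2 of them and lay above it in 3.

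Bax, Apaf1 and Ei24 stayed within 2-fold on RPKM as deposited, with intervals above 1 in 4 of the 5 scalings. Bax, which forms pores in the mitochondrial membrane, was at 21.6 RPKM in the Utx/p53 DKO library, against 17.2 RPKM in the p53 KO library (ratio 1.25, 1.07 to 1.47). Apaf1, the scaffold of the caspase-activating apoptosome, was at 4.09 RPKM in the Utx/p53 DKO library, against 2.87 RPKM in the p53 KO library (ratio 1.42, 1.24 to 1.64). Bax was higher in 4 scalings and Apaf1 in all 5. Ei24, an endoplasmic reticulum protein linked to autophagy, was at 11.2 RPKM in the Utx/p53 DKO library, against 7.46 RPKM in the p53 KO library (ratio 1.502, 1.29 to 1.75). It was higher in all 5 scalings and at least 2-fold with the gfold constants alone (1.09).

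Aen, a nuclease that p53 induces and that degrades DNA during apoptosis, was the second lowest measured member on log2(RPKM + 1). By RPKM ratio, Plk2, Bbc3, Tnfrsf10b and Sesn3 lay lower than Aen. Aen had 445 reads (9.06 RPKM) in the Utx/p53 DKO library, against 1057 reads (25.1 RPKM) in the p53 KO library. It was 2.77-fold lower (ratio 0.361, 0.322 to 0.404), and 777 measured genes had a lower log2 difference than its -1.38. It was at least 2-fold lower in 4 scalings, and at -0.82 with the gfold constants.

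Phlda3, Perp and Zmat3 lay below the filter on low values. Phlda3, whose product keeps the kinase Akt from the membrane, had 0 reads in the Utx/p53 DKO library, against 33 reads (1.32 RPKM) in the p53 KO library. On RPKM as deposited, with a floor of 3 reads set for the Utx/p53 DKO library, it was 12.8-fold lower. By the exact interval it was at least 9.86-fold lower. Perp, a membrane protein of cell junctions, went the other way, with 54 reads (1.43 RPKM) in the Utx/p53 DKO library, against 4 reads (0.123 RPKM) in the p53 KO library (ratio 11.6, 4.27 to 44.0). Zmat3, an RNA-binding zinc finger protein, had 125 reads in the Utx/p53 DKO and 106 in the p53 KO library (ratio 1.01, 0.774 to 1.32).

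Among the measured genes of the set, the death receptor gene Fas showed the largest difference on log2(RPKM + 1). It had 603 reads (20.4 RPKM) in the Utx/p53 DKO library, against 60 reads (2.36 RPKM) in the p53 KO library, a ratio of 8.62 (6.60 to 11.4). Its log2 difference of 2.67 was exceeded by 110 of the 11356 measured genes, and it lay between 2.31 and 3.25 over the scalings. A shorter listed Fas transcript of 555 bases had 66 reads in the Utx/p53 DKO and 11 in the p53 KO library, and the forms share sequence, so reads can count for both. Mature lymphocytes and other blood cells also use Fas. Most T and NK cell and granulocyte and monocyte markers given above were higher in the same library, while all 6 measured B cell markers were lower. The part of these cell types was not tested.

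Tnfrsf10b, the mouse receptor for the death ligand TRAIL, differed from Fas in direction. It had 35 reads (0.553 RPKM) in the Utx/p53 DKO library, against 107 reads (1.97 RPKM) in the p53 KO library, 3.56-fold lower (ratio 0.281, 0.186 to 0.414). On the log2(RPKM + 1) scale its difference of -0.94 stayed short of 2-fold, because the added 1 weighs on low levels. The ectodysplasin receptor gene Eda2r had 0 reads in both libraries. Gdf15, a stress cytokine, had 0 reads in the Utx/p53 DKO and 2 in the p53 KO library, too few to show a difference.

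The nucleotide excision repair genes Xpc and Ddb2, both damage sensors, differed in opposite directions. Xpc had 6401 reads (88.5 RPKM) in the Utx/p53 DKO library, against 2426 reads (39.1 RPKM) in the p53 KO library. Its ratio was 2.26 (2.16 to 2.37), higher in all 5 scalings and at least 2-fold in 4 of them, with 0.79 at equal summed RPKM. Its log2 difference of 1.16 was larger than that of 94.6% of measured genes. Xpc was the second most abundant member in the Utx/p53 DKO library after Btg2, and came behind Btg2 and Cdkn1a in the p53 KO library.

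Ddb2, which finds ultraviolet damage in chromatin, was at 6.63 RPKM in the Utx/p53 DKO library, against 11.4 RPKM in the p53 KO library (ratio 0.580, 0.493 to 0.682). It was below 0 in all 5 scalings, but its interval held 1 with the gfold constants. In the GENCODE M21 annotation 621 exon bases of Ddb2 lie opposite exons of Acp2, and since the sources used here give no strand setting, its reads may include reads of that gene. Opposite-strand overlaps of 273 bases for Cdkn1a, 260 for Rrm2b and 62 for Ei24 leave the same doubt on a smaller stretch. Bax shares 192 exon bases with another gene on the same strand, so there the doubt holds under any strand setting. Polk, a polymerase that copies past damaged bases, was at 5.06 RPKM in the Utx/p53 DKO library, against 6.85 RPKM in the p53 KO library (ratio 0.738, 0.647 to 0.842). Rrm2b, the p53-induced subunit of ribonucleotide reductase, was at 2.87 RPKM in the Utx/p53 DKO library, against 3.37 RPKM in the p53 KO library (ratio 0.851, 0.714 to 1.01). The directions of Polk and Rrm2b turned with the scaling.

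**Figure D4:**
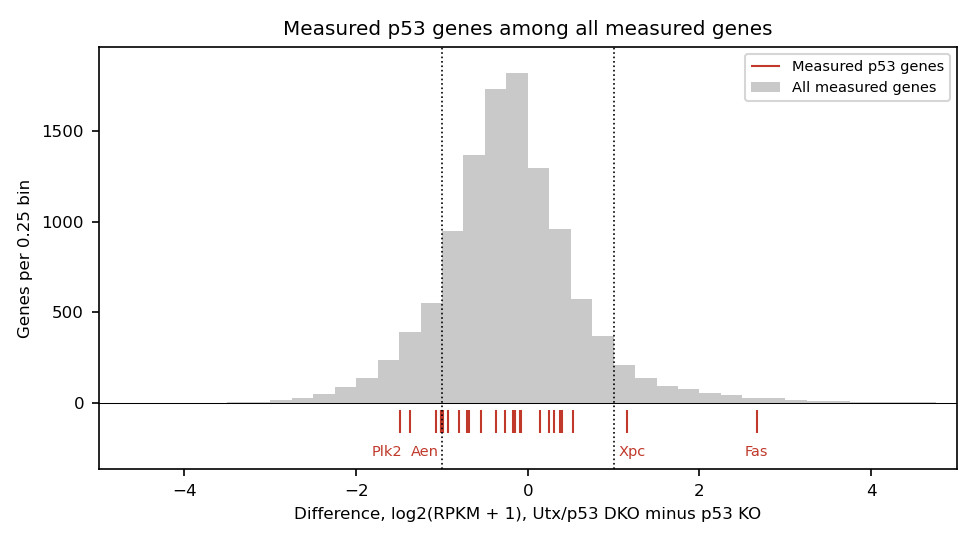
Number of measured genes by difference on the log2(RPKM + 1) scale, Utx/p53 DKO minus p53 KO, in bins of 0.25 (gray), with the 25 measured p53 genes as red ticks; dotted lines mark 2-fold. The ticks spread over the same range as most genes, and Fas at 2.67 lies far out on the right.

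Other genes of the pathway were read from 4 further lists. Of 19 measured regulators of p53, 0 were at least 2-fold higher and 2 (10.5%) lower, against 6.6% and 13.5% of all measured genes, with a median of -0.45. Usp10, a deubiquitinase that stabilises p53, was at 8.00 RPKM in the Utx/p53 DKO library, against 24.1 RPKM in the p53 KO library (-1.48). Trp53bp1, a reader of chromatin at DNA breaks, was at 5.06 RPKM in the Utx/p53 DKO and 14.2 RPKM in the p53 KO library (-1.32). The damage kinase gene Atr differed by -0.91 and the ubiquitin ligase gene Rchy1 by -0.77, both short of 2-fold. Cdkn2a, of whose products the Mdm2 inhibitor Arf is one, had 7 reads in the Utx/p53 DKO and 0 in the p53 KO library. They were read from 1 of its 2 listed transcripts, and whether they belong to the Arf form was not tested. Cdkn2a lay below the filter and was picked for mention with that value known.

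The relatives of p53 were hardly present. Trp63 and Trp73 lay below the filter, with 3 and 0 reads in the Utx/p53 DKO library, against 6 and 3 reads in the p53 KO library. Among the 3 measured genes listed with them, Ppp1r13b (ASPP1, which steers p53 towards death genes) was lower (-1.15). Its level was 1.98 RPKM in the Utx/p53 DKO library, against 5.63 RPKM in the p53 KO library. Trp53bp2 (ASPP2) differed by -0.51 and Wrap53, the neighbour of Trp53 and a telomerase factor, by 0.03.

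Further target genes held 1 member with a gap like that of Fas. Of 19 measured, 1 (5.26%) was at least 2-fold higher and 2 (10.5%) lower, against 6.6% and 13.5% of all measured genes, with a median of -0.30. Dram1, a lysosomal membrane protein of autophagy, had 1549 reads (27.7 RPKM) in the Utx/p53 DKO library, against 156 reads (3.25 RPKM) in the p53 KO library (ratio 8.52, 7.22 to 10.1). Trp53i11 was at 3.45 RPKM in the Utx/p53 DKO and 11.6 RPKM in the p53 KO library (-1.50), and the tetraspanin gene Cd82 at 21.6 and 52.4 RPKM in that order (-1.24). Trp53i11 was at least 2-fold lower in all 5 scalings and Cd82 in 4, with Cd82 at -0.66 with the gfold constants. Rps27l, a ribosomal protein relative, was at 185 RPKM in the Utx/p53 DKO and 95.9 RPKM in the p53 KO library (0.94). That was short of 2-fold on RPKM as deposited, but Rps27l was at least 2-fold higher in 3 of the 5 scalings.

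Cell cycle genes that p53 represses through p21 and the DREAM complex formed the last list. Of 18, all measured, 0 were at least 2-fold higher and 1 (5.56%) lower, against 6.6% and 13.5% of all measured genes, with a median of -0.19. Bub1, a kinase of the spindle checkpoint, was at 3.11 RPKM in the Utx/p53 DKO library, against 10.6 RPKM in the p53 KO library (-1.49), and its partner Bub1b differed by -0.81. The mitotic kinase gene Aurka differed by -0.90 and Birc5 (survivin) by 0.74. Over the 4 lists together, 1 of 58 measured genes (1.72%) was higher and 6 (10.3%) lower, against 6.6% and 13.5% of all measured genes. With the gfold constants 7 were higher and 2 lower, against 16.5% and 6.27% of all measured genes.

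**Figure D5:**
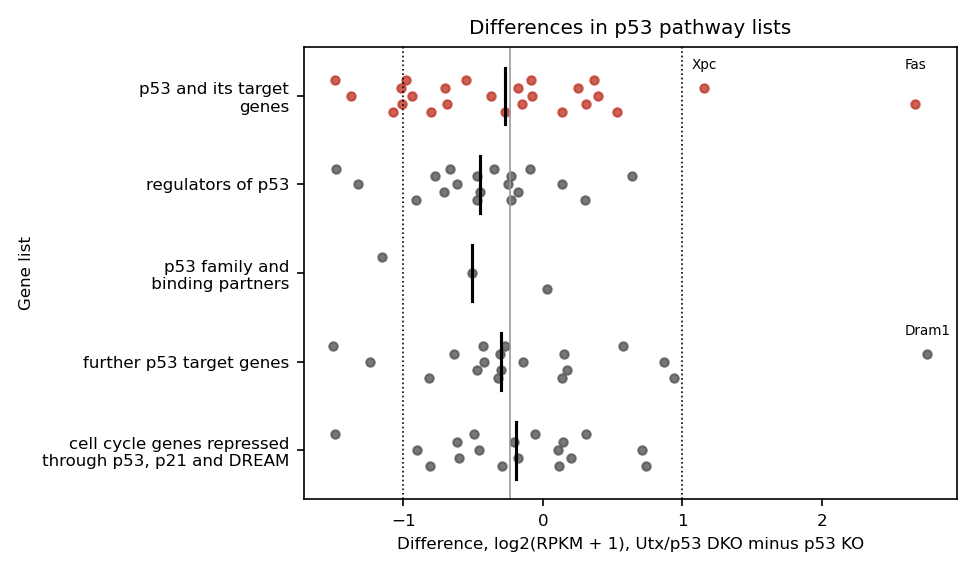
Difference on the log2(RPKM + 1) scale, Utx/p53 DKO minus p53 KO, of each measured gene in the p53 set (red) and in 4 further p53 pathway lists (gray); black bars are list medians, the gray line is the all-gene median of -0.24 and dotted lines mark 2-fold. Fas, Xpc and Dram1 are the genes right of the upper 2-fold line.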

How the data were processed

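RNA from sorted LSK cells of 2 genotypes, 1 library each, was oligo-T purified and amplified as SMART cDNA, per the labels' protocols. Of tools and builds, bcl2fastq 1.8.4, TopHat2 2.1.0 and mm9 appear in the submitters' processing notes. Version 1.1.4 of gfold wrote the 1 table, per its header. It holds the authors' RPKM values, scaled by read totals, and the authors' deposited log2 fold change and GFOLD value set on normalization constants of 1 (Utx/p53 DKO) and 1.30144 (p53 KO), and a q-value (E-FDR) of 1 in every row. Columns were assigned to libraries from the order in the header and the sample titles. The sources used here do not say how multi-mapping reads and strand were treated.

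Differences are on log2(RPKM + 1), which understates those of low genes, for genes averaging 1 RPKM or more; a call needs 2-fold. No test was possible. Whole reads were recovered from RPKM and log2 fold change for 94.3% of transcripts with reads and for every member with reads. No solution was found for 538 transcripts. On data simulated by the formula used for recovery, 91.4% were recovered, all correctly. The simulation cannot check that the deposited values follow that formula. Ratios carry exact (Clopper-Pearson) 95% intervals, and a gene at 0 a floor of 3 reads; both cover counting error only, and PCR copies are not independent molecules. The members and lists were chosen with earlier results of these data known. Named were all members, Kdm6a, and per list up to 4 genes with the largest absolute difference. The most abundant markers are named for the sort and for the granulocyte and monocyte lists only. Kit, Epor, partner genes, Trp63, Trp73 and Cdkn2a were added after their values were seen. The result for a further partner gene is not reported here. Python 3.11.15, pandas 2.3.3 and scipy 1.17.1 were used.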

Additional observations from a re-analysis of the deposited data

How the results depend on the processing

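With 1 library per genotype no replicate could be left out. No paired analysis was possible because each group has 1 library. The count of members at least 2-fold higher was 2; it was 1 with equal summed RPKM or a 3-fold rule, and 2 or 3 in the other settings tried. The count of lower members was 5; it became 1 with a pseudocount of 5 or the gfold constants, 2 with a minimum mean of 5 RPKM, with centring or with upper quartiles, 10 with equal summed RPKM or a 1.5-fold rule, and 0 with a 3-fold rule. The median difference of -0.27 was -0.032 centred, -0.12 with upper quartiles, -0.61 with equal summed RPKM and 0.29, reversed, with the gfold constants, in each case with the all-gene median moved the same way by that scaling; other causes were not tested. In the 4 further lists the count of 1 higher gene became 2 with a pseudocount of 0.1 or upper quartiles, 3 centred, 7 with the gfold constants and 6 with a 1.5-fold rule. Their count of 6 lower genes became 2 with a pseudocount of 5 or the gfold constants, 13 with equal summed RPKM, 17 with a 1.5-fold rule and 0 with a 3-fold rule. No member at least 2-fold higher or lower changed sign under the other scalings or with RPKM summed over transcripts. The pseudocount and filter settings cannot turn a sign, so they say nothing on this. For the counts that moved, the cause was not tested. Of all measured genes at least 2-fold apart, those higher made up 32.9% on RPKM as deposited, 52.4% centred, 43.1% with upper quartiles, 15.5% with equal summed RPKM and 72.5% with the gfold constants. Depth limits Gdf15, Ddit4l and Sesn2, whose intervals hold 1.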

Other observations

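Partners of Fas, of Xpc with Ddb2, and of Apaf1 were read from lists drawn up after the values of Fas, Xpc and Apaf1 were seen. All 11 listed genes that work with Xpc and Ddb2 in nucleotide excision repair were measured. Of them, 0 were at least 2-fold higher and 0 lower, against 6.6% and 13.5% of all measured genes. With the gfold constants 1 was higher, against 16.5% of all measured genes. Rad23b, which stabilises Xpc, was at 14.2 RPKM in the Utx/p53 DKO and 16.2 RPKM in the p53 KO library, and Cetn2, the third subunit of that sensor, at 65.4 and 53.6 RPKM in the same order. The helicase gene Ercc2 had the widest gap, at 2.33 RPKM in the Utx/p53 DKO library, against 5.46 RPKM in the p53 KO library (-0.95). The highest RPKM ratio among the 11 was the 1.38 of Ercc1, against 2.26 for Xpc.

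Of genes that work with Fas in death receptor signalling, Fasl, its ligand, was at least 2-fold higher, at 6.46 RPKM in the Utx/p53 DKO library, against 2.39 RPKM in the p53 KO library (1.14). T and NK cells express Fasl, and 7 of 8 of their markers were higher in the same library; their part was not tested. The initiator Casp8 was at 41.1 RPKM in the Utx/p53 DKO and 69.3 RPKM in the p53 KO library (-0.74), and the adaptor Fadd at 5.05 and 2.94 RPKM in that order (0.62). Of 4 partners of Apaf1, 0 were at least 2-fold higher or lower, against 20.1% of all measured genes. With the gfold constants 1 was higher, against 16.5% of all measured genes. Cycs (cytochrome c) was at 174 RPKM in the Utx/p53 DKO and 106 RPKM in the p53 KO library (0.71).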
